A study of Mus musculus with 50 samples.

Results

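The genes described here are 8 genes of thyroid hormone activation, transport, binding and action: Dio1 and Dio2 (deiodinases), Slc16a10 (a plasma membrane carrier), Crym (a cytosolic hormone-binding protein), Thra and Thrb (the nuclear receptors), and Klf9 and Thrsp (genes known to be induced by the hormone). They were taken from the table of counts by a fixed list of symbols, a rule that uses no measured value, although the list was drawn up with earlier results of these data known. They are 8 of 52636 listed genes. All 8 had at least 1 count in each of 50 libraries. The libraries are bulk RNA of thyroids from male C57BL/6 mice, in 10 groups of 5, and every mouse was given antibodies in a single intraperitoneal dose. The isotype control was an antibody to ragweed (RW) at 40 mg/kg. The pair aJ1aJ2 blocks the Notch ligands Jag1 and Jag2 at 20 mg/kg per antibody. For aN1aN2, antibodies that block the receptors Notch1 and Notch2 were given at 5 and 10 mg/kg, and aN1aN2aN3 adds an antibody to Notch3 (5, 10 and 20 mg/kg). RW, aJ1aJ2 and aN1aN2 thyroids were taken at 15 hours and at 5 days. The 7-day thyroids form a first set with an RW and an aJ1aJ2 group, and another, called the second set here and carrying its own series of sample IDs, with an aJ1aJ2 and an aN1aN2aN3 group. The second set had no RW group among the libraries used here, so its only reference was a group that also received antibodies. The labels describe the mice as normal, with ages stated as 10 to 12 weeks in one place and 10 to 14 weeks in another. Thyroid hormone injections are mentioned in the design text as well, but no label says which mice received them, so hormone was not used as a factor. Nothing in the labels says that each library is a separate animal, so the p-values measure the spread between these libraries.

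Thyroid hormone is released mainly as thyroxine, a prohormone that deiodinases turn into the active triiodothyronine by removing an outer-ring iodine. The hormone crosses membranes through carriers, is held in the cytosol by binding proteins, and acts in the nucleus through receptors that sit on DNA as heterodimers with retinoid X receptors and that recruit corepressors without hormone and coactivators with it. The thyroid itself expresses deiodinases, so part of the triiodothyronine that leaves the gland is made there. Dio1 and Dio2 are selenoproteins, whose active site holds selenocysteine, encoded by a codon that elsewhere ends translation.

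The codon in question is shown for both deiodinases, because it is the catalytic residue that the family shares and that ties it to the selenoprotein genes described further on. In the reference transcripts Dio1-201 and Dio2-201 (GENCODE M21, GRCm38), the first in-frame TGA is codon 126 of 257 in Dio1 (chr4:107297700-107297702, minus strand) and codon 130 of 266 in Dio2 (chr12:90729823-90729825, minus strand). The TGA is in capitals, with 24 coding bases on either side, and 28 of the 51 bases are the same in both genes. Dio2 has another in-frame TGA, at codon 263, close to the end of its coding sequence.
Dio1: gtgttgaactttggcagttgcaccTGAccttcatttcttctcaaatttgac
Dio2: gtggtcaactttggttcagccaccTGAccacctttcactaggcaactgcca

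Promoter windows of 300 bases (250 before and 50 after the start, RefSeq, GRCm38.p6) were listed for 6 of the 8 genes, with 7 windows in all, since Thrb has 2. They were searched on both strands for 6 motifs. The full cAMP response element, TGACGTCA, was found in the Dio2 window and in 1.79% of 32851 promoter windows. It began 95 bases before the Dio2 start, and a TATA box (TATAAA, in 13.6% of windows) began 30 bases before it. Both Dio2 stretches are printed because Dio2 is known as a gene induced through cAMP, and because its level set it apart from Dio1 in the data below. The motif is in capitals.
Dio2, chr12:90739115-90739144, minus strand: ctctttctcaaTGACGTCAagatctttagc
Dio2, chr12:90739052-90739079, minus strand: gccagggaatgTATAAAaggcttcaggg
The half-site of nuclear receptors, AGGTCA, was in 1 Thrb window and in 16.3% of all windows. The other Thrb window held TATAAA. The repeat that hormone receptors bind, AGGTCA followed by AGGTCA after any 4 bases, was in 0 of the 7 windows and in 0.0152% of all. The glucocorticoid response element was in 0 of 7 and in 0.00913% of all, and the core that the Notch effector RBPJ binds, GTGGGAA, was in 0 of 7 and in 6.38% of all. These matches describe letters in short windows and say nothing about binding.

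Total counts ran from 15271242 to 52835846 per library. The tissue was checked by markers: all 11 follicle markers, 9 of 9 skeletal muscle markers and all 10 adipocyte markers had counts in every group. Levels are given as CPM, counts per 1000000 counts of a library (with library sizes scaled by TMM, except in sums over markers). The summed muscle markers spanned 433 to 129819 CPM over the 50 libraries. RW replicate 3 at 5 days stood apart, with 129819 CPM of muscle markers and 0.450% of counts from thyroglobulin (Tg), where the other 4 RW libraries at that time had 34.0 to 40.3%. After aJ1aJ2 at 5 days, replicate 3 had 86365 CPM of muscle markers and 2.39% of counts from Tg. In the second 7-day set Tg took 1.15 to 6.50% of counts in all 10 libraries. Within that set the summed adipocyte markers did not overlap between groups, at 4808 to 6730 CPM after aJ1aJ2 and 1337 to 3047 CPM after aN1aN2aN3, and neither did the summed follicle markers, at 12643 to 30500 and 39209 to 68248 CPM. The same held for C cell markers, at 6799 to 25995 and 30813 to 48071 CPM, and for brown adipocyte markers, at 985 to 2261 and 103 to 668 CPM. Most of the follicle sum was Tg, and its members went both ways. By the edgeR test described below, Tg (log2 fold change 1.31, adjusted p = 0.0137) and Pax8 (0.78, 0.0222) were higher after aN1aN2aN3. Slc5a5 was lower (−1.91, 0.0165), and the other tested follicle markers did not pass. In bulk tissue, fewer cells of a type and less RNA per cell cannot be told apart, and this holds for every result below.

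Per kilobase of merged exons (GENCODE M21), Dio1 had the highest level of the 8 genes and Crym the lowest. Over the 50 libraries the median was 142 CPM per kb for Dio1, 63.5 for Thrsp, 28.4 for Klf9 and 15.5 for Thra. It was 3.80 CPM per kb for Dio2, 3.12 for Slc16a10, 2.91 for Thrb and 0.213 for Crym. Control thyroids at 15 hours gave 205 ± 94.6 CPM per kb for Dio1 and 3.37 ± 1.03 for Dio2 (SD, n = 5), with no overlap between the 2 deiodinases, and 18.0 ± 4.704 for Thra and 3.25 ± 0.706 for Thrb, also with no overlap. The deposited FPKM was not used to rank genes. Its length term followed the whole gene span rather than the exons: for 93.1% of 25390 genes the ratio of count to FPKM lay within 10% of the gene span times 1 constant, against 5.64% for merged exon length. Crym rested on few reads, 2 to 279 per library, whereas the other 7 genes had at least 15.

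**Figure D1:**
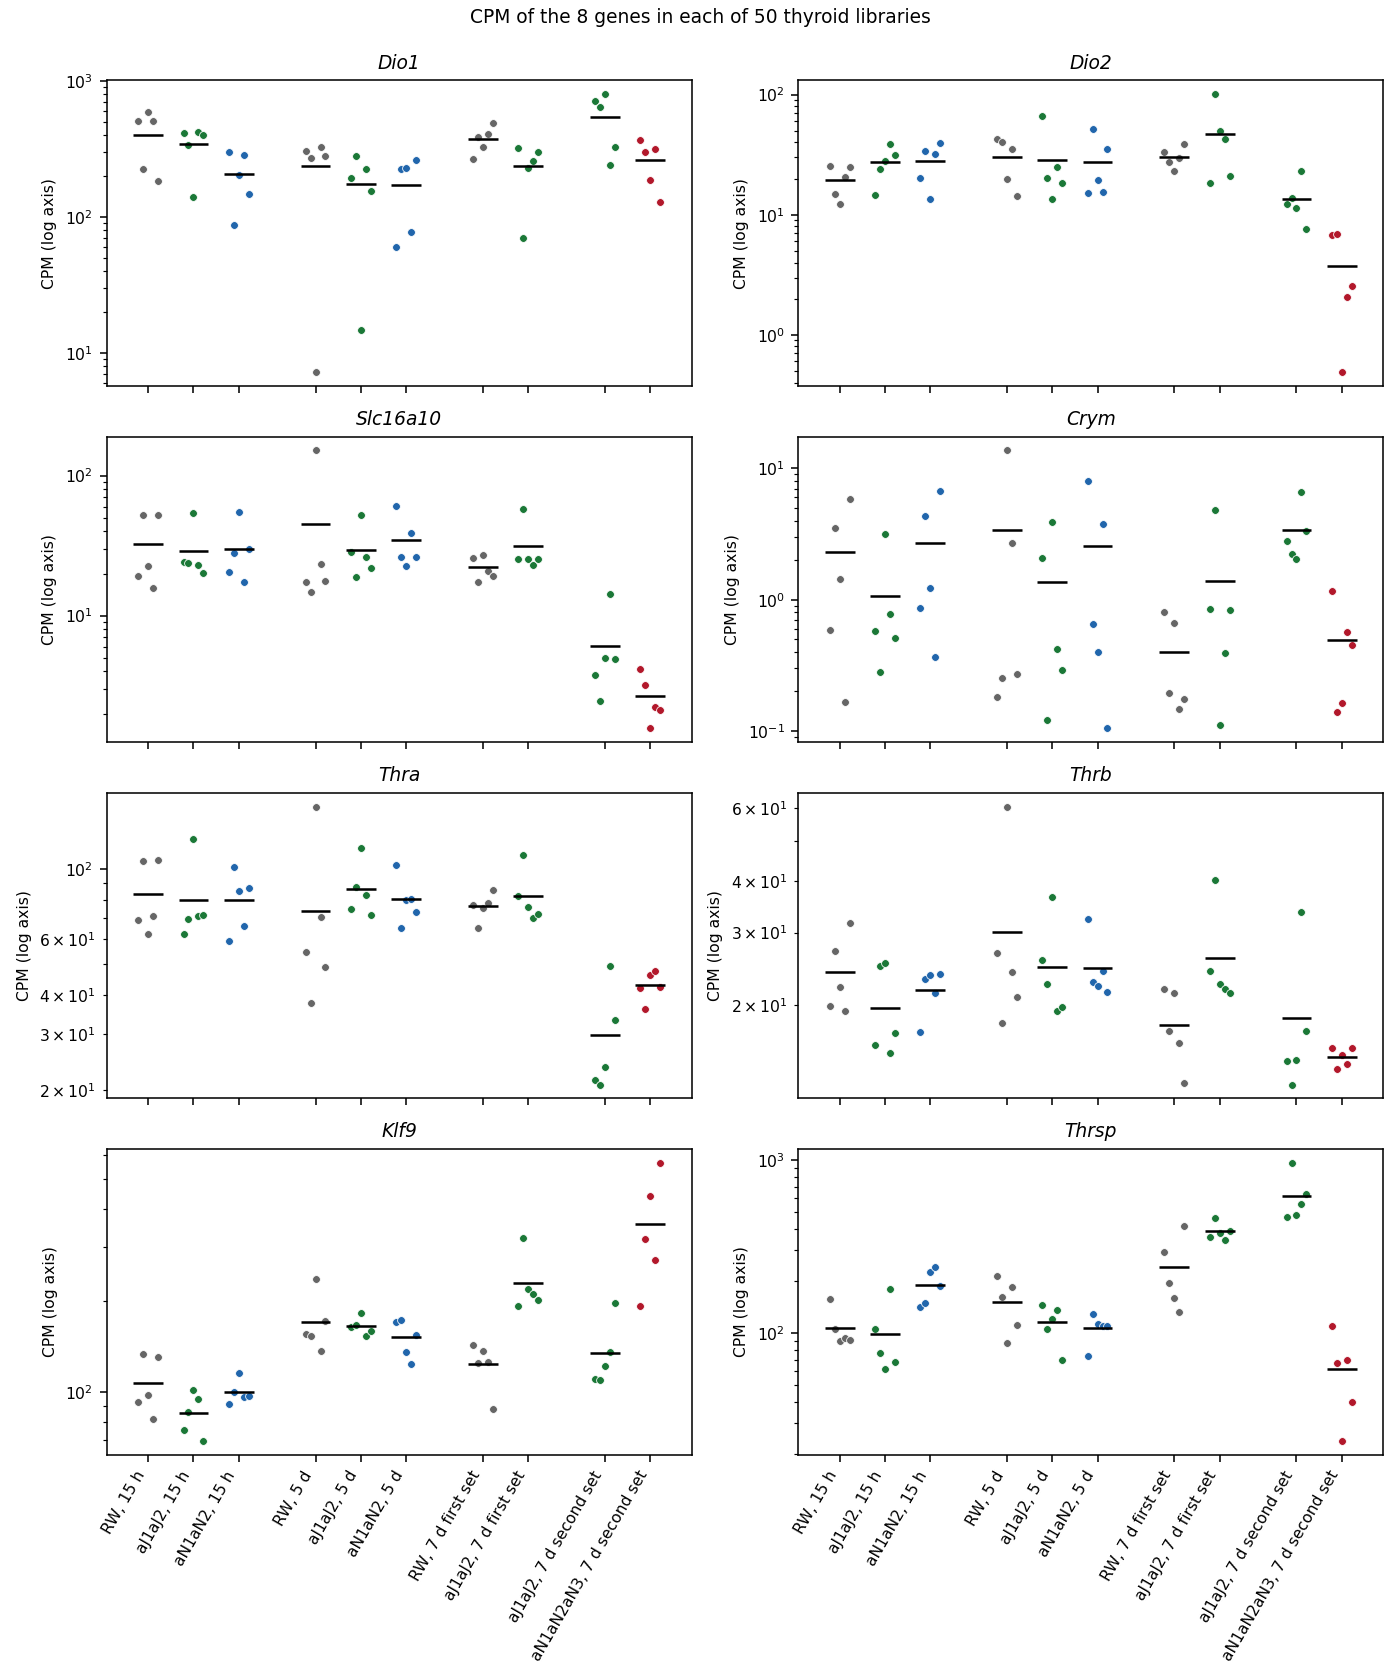
CPM of each gene (vertical axis, log scale) in every library, by group along the horizontal axis; points are libraries in replicate order, black bars are group means, and colours mark RW (grey), aJ1aJ2 (green), aN1aN2 (blue) and aN1aN2aN3 (red). In the second 7-day set Thrsp lies between 465 and 961 CPM after aJ1aJ2 and between 23.8 and 109 CPM after aN1aN2aN3, and Klf9 lies higher after aN1aN2aN3.

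Against the isotype control, none of the 8 genes passed the test in any of the 5 comparisons, whereas 4 of 8 passed between the 2 antibody groups of the second 7-day set. Genes were tested with edgeR's quasi-likelihood test, and a gene passed where its Benjamini-Hochberg adjusted p over all genes tested was below 0.05. Adjusted p-values are edgeR's unless another tool is named. After aJ1aJ2 at 15 hours 0 of 8 passed, beside 0.573% of 18513 genes, with 1 of 8 at an unadjusted p below 0.05 (Klf9), beside 6.59%. After aN1aN2 at 15 hours 0 of 8 passed, beside 1.68% of genes, with 2 at an unadjusted p below 0.05 (Dio1 and Thrsp), beside 14.4%. At 5 days 0 of 8 passed after aJ1aJ2 and 0 of 8 after aN1aN2, beside 0.179% and 0% of 18434 genes, with 0 of 8 at an unadjusted p below 0.05 in either, beside 11.8% and 10%. At 7 days in the first set 0 of 8 passed after aJ1aJ2, where 0% of 16954 genes passed, with 3 at an unadjusted p below 0.05 (Thrb, Klf9 and Thrsp), beside 11.6%. In the second set Klf9 was higher and Thrsp, Crym and Dio2 were lower after aN1aN2aN3 than after aJ1aJ2, beside 9.19% of 18450 genes called higher and 10.4% called lower (19.6% in all). There 6 of 8 had an unadjusted p below 0.05, beside 35.6%. DESeq2 called 0 of 8 in each of the 4 comparisons with RW at 15 hours and 5 days, 1 of 8 after aJ1aJ2 at 7 days (Klf9, beside 1.49% of the genes given to it) and 6 of 8 in the second set (beside 14.9%), which added Dio1 and Slc16a10. Between aN1aN2 and aJ1aJ2, 0 of 8 passed at 15 hours, beside 0.13% of genes, and 0 of 8 at 5 days, beside 0%, with 1 (Thrsp, beside 12.5%) and 0 (beside 4.22%) at an unadjusted p below 0.05 and 0 and 0 by DESeq2. The deposited FPKM of the aN1aN2 libraries at 15 hours is on the scale of the 5-day libraries and not on that of RW and aJ1aJ2 at 15 hours. Antibody and whatever step set that scale cannot be told apart there.

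**Figure D2:**
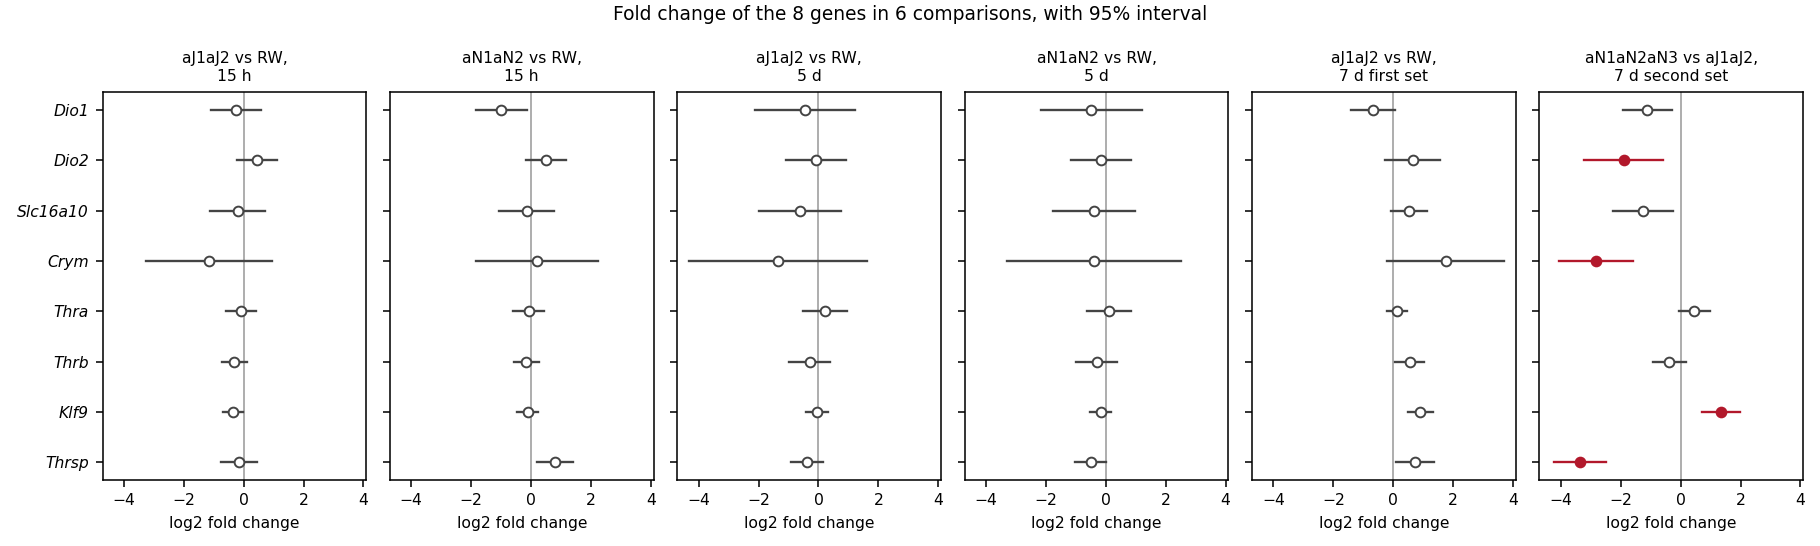
Log2 fold change of each gene (horizontal axis; bars are 95% intervals) in the 5 comparisons with RW and the 1 comparison within the second 7-day set; filled red points have an edgeR adjusted p below 0.05 and open points do not. Red points appear in the last panel alone, for Dio2, Crym, Klf9 and Thrsp.

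Among the deiodinases, Dio1, which activates and also degrades the hormone, did not pass the test against RW at any time, and its estimate was below 0 in all 5 comparisons, which share their controls in pairs. At 15 hours Dio1 was at 506, 226, 597, 509.9 and 184 CPM in the RW libraries (replicates 1 to 5) and at 303, 87.1, 204, 285 and 148 CPM after aN1aN2. Each aN1aN2 library lay below the RW mean, and the groups overlapped (log2 fold change −0.99, SE 0.40, adjusted p = 0.263). With the summed follicle markers as a covariate, an alternative chosen after seeing the data, the estimate was −0.64 (adjusted p = 0.272), and with the summed adipocyte markers it was −0.28 (adjusted p = 0.83). At 7 days in the first set Dio1 was at 265, 386, 326, 410.0 and 489.6 CPM in RW and 324, 70.3, 230.0, 258 and 299 CPM after aJ1aJ2 (log2 fold change −0.66, SE 0.33, adjusted p = 0.469). The lowest of these, aJ1aJ2 replicate 2, held 81609 CPM of muscle markers, the most in its group. At 5 days the means were 239 ± 131 CPM in RW, 174 ± 100.1 after aJ1aJ2 and 172 ± 95.6 after aN1aN2 (SD, n = 5), and RW replicate 3, a library rich in muscle markers, had 7.21 CPM. In aJ1aJ2 replicate 3 at 5 days, with 86365 CPM of muscle markers, Dio1 was at 14.6 CPM.

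Dio1 in the second 7-day set was at 712, 645, 803, 239.6 and 329.8 CPM after aJ1aJ2 and 370.4, 303, 186, 319 and 130.0 CPM after aN1aN2aN3. The groups overlapped through aJ1aJ2 replicates 4 and 5, and the difference narrowly missed the threshold (log2 fold change −1.11, SE 0.37, adjusted p = 0.0539, 95% interval −1.91 to −0.30). It passed with DESeq2, and without aN1aN2aN3 replicate 1 or aJ1aJ2 replicate 4 or 5. The aJ1aJ2 group of the second set had the highest mean of all 10 groups, 546 ± 247 CPM, followed by RW at 15 hours with 405 ± 186, RW at 7 days with 375 ± 85.1 and aJ1aJ2 at 15 hours with 345 ± 119 CPM. The lowest means were those of aJ1aJ2 and aN1aN2 at 5 days. Each neighbouring pair in this order differed by less than the larger of its SDs. Here and for the genes below, an order over the 10 groups spans both 7-day sets, whose aJ1aJ2 groups differed from each other in most genes tested, so it describes levels and compares no antibodies.

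Dio2, the high-affinity enzyme that only activates the hormone and that is typical of brown fat, pituitary and brain, was lower after aN1aN2aN3 than after aJ1aJ2. The aJ1aJ2 libraries of the second set had 12.2, 13.9, 11.4, 23.0 and 7.56 CPM and the aN1aN2aN3 libraries 6.83, 6.89, 0.491, 2.08 and 2.54 CPM. The groups did not overlap, and the fall was 3.74-fold (log2 fold change −1.90, SE 0.60, adjusted p = 0.0483, 95% interval −3.23 to −0.58). This call was narrow: it held in 4 of 10 fits that left out 1 library and was lost without aN1aN2aN3 replicate 4 or 5 or aJ1aJ2 replicate 1, 2, 3 or 4 (adjusted p 0.0352 to 0.111 over the 10 fits). It was also lost with no low-count filter (adjusted p = 0.115) and with the replicate number as a block (0.0599). The 2 group means of the second set were the lowest of the 10, 13.6 ± 5.75 and 3.77 ± 2.93 CPM (SD, n = 5), and each was further from the next mean above it than either SD. For aJ1aJ2 this depended on scaling. On unscaled library sizes its mean was 17.2 ± 4.90 CPM and that of RW at 15 hours 19.3 ± 6.35 CPM, closer than either SD. The other 8 means ran from 19.6 ± 6.00 CPM in RW at 15 hours to 46.6 ± 33.2 CPM after aJ1aJ2 in the first 7-day set, with neighbours within their SDs. Dio2 in aJ1aJ2 replicate 2 of the first set, at 101 CPM, was the highest of the 50 libraries. That library also had the highest summed adipocyte markers, 7033 CPM. Against RW at 15 hours Dio2 was estimated higher by 0.45 (log2) after aJ1aJ2, which did not pass (adjusted p = 0.967). Its exons share 100 bases, 1.72% of their length, with Gm26512, a noncoding gene on the opposite strand. Use of strand in counting is not given in the sources used here, so reads in that stretch are uncertain.

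Slc16a10, a carrier of aromatic amino acids and of both forms of the hormone, did not pass in any comparison of antibodies. In the second 7-day set it was at 3.79, 2.46, 5.02, 14.2 and 4.89 CPM after aJ1aJ2 and 4.19, 3.20, 1.57, 2.24 and 2.12 CPM after aN1aN2aN3 (log2 fold change −1.25, SE 0.46, adjusted p = 0.0737). The highest value belonged to aJ1aJ2 replicate 4, which held 115641 CPM of muscle markers, and without it the estimate was −0.63. With the summed muscle markers as a covariate the difference passed (−1.15, adjusted p = 0.0117), as it did without aJ1aJ2 replicate 2 (−1.43, adjusted p = 0.0443). The fit with that covariate called 4909 of 18450 genes. In the other 8 groups the means lay between 22.1 ± 4.20 CPM (RW, first 7-day set) and 45.0 ± 59.6 CPM (RW at 5 days), with neighbours in the order within their SDs. The last of these rests on RW replicate 3, at 151 CPM, where the other 4 libraries had 14.9 to 23.5 CPM. The first-set estimate after aJ1aJ2 was 0.53 (adjusted p = 0.473), with all 5 libraries above the RW mean. Of these, replicate 2 was at 57.7 CPM and held 81609 CPM of muscle markers. The others, at 23.1 to 25.6 CPM, lay within the RW range of 17.4 to 27.3 CPM.

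Crym, which encodes a protein that holds triiodothyronine in the cytosol and is abundant in muscle and brain, was lower after aN1aN2aN3 than after aJ1aJ2. The aJ1aJ2 libraries had 2.78, 2.23, 2.03, 6.62 and 3.31 CPM and the aN1aN2aN3 libraries 1.15, 0.141, 0.164, 0.567 and 0.454 CPM. The groups did not overlap, and the fall was 7.05-fold (log2 fold change −2.82, SE 0.56, adjusted p = 0.00664, 95% interval −4.05 to −1.59). It passed in 10 of 10 fits that left out 1 library, with log2 fold changes of −3.41 to −2.40, and without aJ1aJ2 replicate 4, the library rich in muscle. The summed muscle markers overlapped between the groups, at 433 to 115641 CPM after aJ1aJ2 and 6041 to 32469 CPM after aN1aN2aN3. With them as a covariate the estimate was past the threshold (log2 fold change −2.85, adjusted p = 0.00189), in a fit that called 4909 of 18450 genes. Elsewhere Crym was low and uneven. The group means ran from 0.399 ± 0.314 CPM in RW at 7 days to 3.42 ± 5.84 CPM in RW at 5 days, with an SD above the mean in 7 of 10 groups, and no neighbours in the order differed by more than the larger of their SDs. Intervals against RW were wide, for example −0.20 to 3.69 around 1.75 after aJ1aJ2 in the first 7-day set (adjusted p = 0.47).

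The receptor genes Thra and Thrb did not pass in any comparison of antibodies. Gene counts do not separate their isoforms, among them a Thra product that binds no hormone. Thra in the second 7-day set was at 21.5, 20.8, 23.6, 49.4 and 33.3 CPM after aJ1aJ2 and 42.0, 36.0, 46.1, 47.4 and 42.4 CPM after aN1aN2aN3 (log2 fold change 0.46, SE 0.24, adjusted p = 0.192). All 5 aN1aN2aN3 libraries lay above the aJ1aJ2 mean, and the highest single value was that of aJ1aJ2 replicate 4. Without that library the difference passed (log2 fold change 0.75, adjusted p = 0.0121), as it did with library quality weights (0.87) and with the muscle covariate (0.49). Of 18450 genes, the fit with quality weights called 8248 and that with the muscle covariate 4909. Fits of this set without 1 library called 10.9 to 22.9% of genes. Those 2 groups had the lowest means of Thra, 29.7 ± 12.1 and 42.8 ± 4.45 CPM, with a gap between them that exceeded both SDs. On unscaled library sizes the aN1aN2aN3 mean was 57.8 CPM, above RW at 5 days (54.5 CPM). The other 8 means lay between 73.8 ± 48.2 CPM (RW at 5 days) and 86.6 ± 18.0 CPM (aJ1aJ2 at 5 days), with neighbours within their SDs. At 5 days Thra was at 54.6, 37.8, 157, 70.5 and 48.9 CPM in RW, 74.5, 87.4, 117, 82.5 and 71.7 CPM after aJ1aJ2 and 103, 64.8, 80.0, 80.1 and 73.2 CPM after aN1aN2. The muscle-rich RW replicate 3 was the highest of all 15, and without it the estimate after aJ1aJ2 went from 0.22 (adjusted p = 0.81) to 0.74 (adjusted p = 0.101). The fit without it kept aJ1aJ2 replicate 3, which held 86365 CPM of muscle markers. Library quality weights, which lower the weight of deviant libraries, gave 0.68 after aJ1aJ2 (limma, adjusted p = 0.00343) and 0.51 after aN1aN2 (0.0373), both past the threshold, beside 18.9% and 8.26% of genes called by that fit. Thra shares 263 exonic bases, 5.7% of its length, with Nr1d1 on the opposite strand, so its counts are uncertain to that extent. Nr1d1 fell from 151 ± 30.1 to 42.6 ± 16.3 CPM after aN1aN2 at 15 hours (log2 fold change −1.84, adjusted p = 0.0075), while Thra was at 83.1 ± 21.7 and 79.7 ± 17.3 CPM in those groups.

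Thrb had the smallest ratio of highest to lowest group mean of the 8 genes. Its group means ran from 15.0 ± 0.777 CPM after aN1aN2aN3 to 30.1 ± 17.3 CPM in RW at 5 days, and every neighbouring pair in the order differed by less than the larger of its SDs. The ends of this order depended on scaling. On unscaled library sizes the means ran from 17.9 CPM (RW, 7 days) to 24.4 CPM (aJ1aJ2, first 7-day set). There aN1aN2aN3 was at 20.3 CPM and RW at 5 days at 22.3 CPM. The aN1aN2aN3 libraries had 15.8, 14.1, 15.2, 14.4 and 15.8 CPM and the aJ1aJ2 libraries of the same set 14.7, 12.9, 14.8, 33.7 and 17.3 CPM, with the muscle-rich replicate 4 again the highest (log2 fold change −0.38, SE 0.25, adjusted p = 0.312). In the first 7-day set Thrb was at 21.9, 17.3, 21.4, 16.2 and 12.98 CPM in RW and 24.2, 40.1, 22.5, 21.9 and 21.4 CPM after aJ1aJ2. The groups overlapped in RW replicate 1 alone, and the difference did not pass (log2 fold change 0.55, SE 0.22, adjusted p = 0.375).

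Klf9 encodes a zinc-finger repressor that is induced directly by triiodothyronine and by glucocorticoids and that follows the circadian clock in many tissues. It was higher after aN1aN2aN3 than after aJ1aJ2, by 2.53-fold (log2 fold change 1.34, SE 0.29, adjusted p = 0.00922, 95% interval 0.71 to 1.97). The aN1aN2aN3 libraries had 191, 317, 441, 272 and 564 CPM and the aJ1aJ2 libraries 111, 110.0, 122, 136 and 196 CPM. The groups overlapped through aN1aN2aN3 replicate 1 and aJ1aJ2 replicate 5, and the call held in 10 of 10 fits that left out 1 library, with log2 fold changes of 1.12 to 1.52. In the first 7-day set, Klf9 was the 1 gene of the 8 whose groups did not overlap, beside 3.51% of all genes there: RW had 143, 125, 137, 126 and 88.3 CPM and aJ1aJ2 192, 319, 218, 211 and 201 CPM. That difference did not pass edgeR's test (log2 fold change 0.91, SE 0.19, adjusted p = 0.131), in a fit in which no gene did. It passed with DESeq2 (adjusted p = 0.00143) and with library quality weights (0.00686, beside 3.51% of genes), and over the 10 fits without 1 library the edgeR adjusted p was 0.0745 to 0.308.

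The aJ1aJ2 effect on Klf9 differed between times. At 15 hours the libraries had 93.2, 133, 98.3, 82.0 and 130.2 CPM in RW and 75.3, 86.6, 102, 94.96 and 69.5 CPM after aJ1aJ2, all 5 of the latter below the RW mean, a difference that did not pass (log2 fold change −0.36, SE 0.16, adjusted p = 0.732). An interaction term over 20 libraries, comparing the effect at 7 days with that at 15 hours, passed (log2 difference 1.23, 95% interval 0.72 to 1.74, adjusted p = 0.0404), 1 of 8 genes, beside 0.0974% of 18487 genes called in that direction (0.314% in all). There 3 of 8 had an unadjusted p below 0.05, beside 10.9%. It was called in 5 of 20 fits without 1 library (adjusted p 0.0216 to 0.0914), and lost with the replicate number as a block (0.0571). From 5 to 7 days the corresponding change was 0.95 (adjusted p = 0.111, DESeq2 0.0206), and 0 of 8 genes passed, beside 0.832% of 18261 genes, with 2 at an unadjusted p below 0.05, beside 11.8%, and 1 by DESeq2, beside 1.66%. At 5 days the means were level, 170.3 ± 37.9 CPM in RW, 165 ± 11.03 after aJ1aJ2 and 151 ± 21.1 after aN1aN2. By level, Klf9 was highest after aN1aN2aN3 (357 ± 147 CPM), then after aJ1aJ2 in the first 7-day set (228 ± 51.9), and lowest after aJ1aJ2 at 15 hours (85.6 ± 13.4). The gap below the first 7-day aJ1aJ2 group exceeded both SDs.

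Thrsp encodes a nuclear protein of fatty acid synthesis, abundant in liver, fat and lactating mammary gland and long used as a readout of triiodothyronine. It had the largest fall of the 8 genes in the second 7-day set, 10.3-fold (log2 fold change −3.37, SE 0.40, adjusted p = 0.000748, 95% interval −4.24 to −2.50). The aJ1aJ2 libraries had 465, 961, 479, 559 and 635 CPM and the aN1aN2aN3 libraries 109, 67.3, 23.8, 70.1 and 40.1 CPM. The groups were far apart, and all 10 fits without 1 library kept the call, with log2 fold changes of −3.69 to −3.15. In that set 3 of 8 genes had groups that did not overlap (Dio2, Crym and Thrsp), beside 15.1% of all genes.

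All 4 calls of the second set ended when tissue composition entered the fit through markers that separate the groups. With the summed adipocyte markers as a covariate 0 of 8 genes and 0 of all genes passed. Thrsp was then at −1.45, Crym at −1.68, Klf9 at 0.29 and Dio2 at 0.079 (log2). With the summed follicle markers, an alternative added after seeing the data, 0 of 8 genes and 2 of all genes passed, with Thrsp at −3.53, Crym at −1.44, Klf9 at 1.40 and Dio2 at −1.02. Most of the follicle sum was Tg. Neither sum overlapped between the groups, nor did those of C cell and brown adipocyte markers, so antibody and composition cannot be told apart in these fits.

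**Figure D3:**
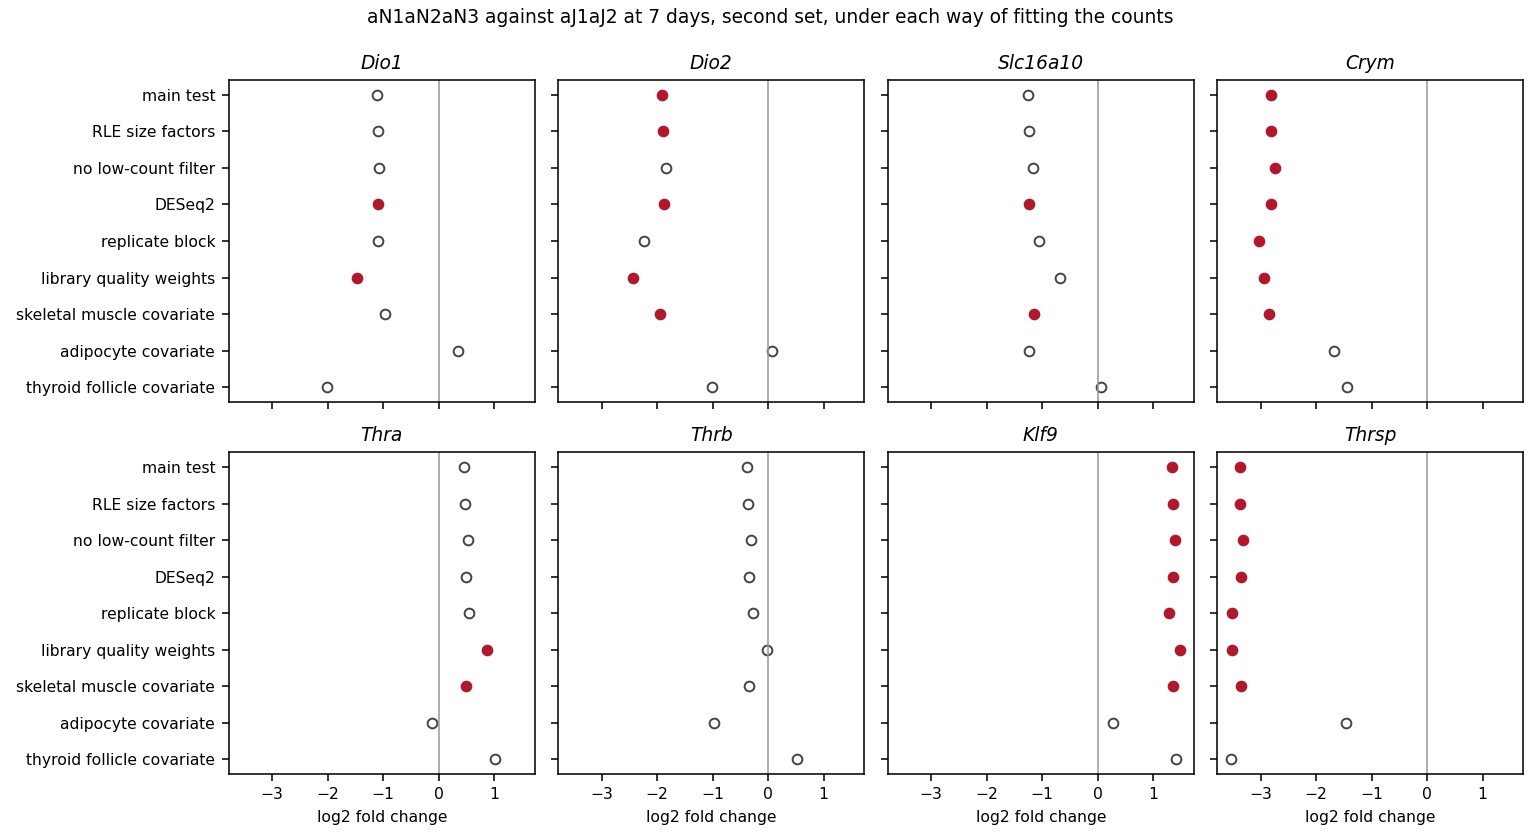
Log2 fold change between aN1aN2aN3 and aJ1aJ2 in the second 7-day set (horizontal axis) of each gene under the main test and 8 other ways of fitting the counts (rows); filled red points have an adjusted p below 0.05. Crym, Klf9 and Thrsp are red in every row except those with the adipocyte or the follicle covariate.

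Against RW, Thrsp did not pass at any time. At 15 hours it was at 157, 105, 90.1, 93.9 and 91.0 CPM in RW and 141, 149, 224, 240.3 and 187 CPM after aN1aN2, all 5 above the RW mean (log2 fold change 0.80, SE 0.28, adjusted p = 0.185). At 5 days it was at 214, 161, 88.0, 185 and 111 CPM in RW and 73.8, 128, 112, 109.9 and 109.6 CPM after aN1aN2, all 5 below the RW mean (log2 fold change −0.51, SE 0.25, adjusted p = 0.526). The change of this effect between the times was −1.30 (log2; 95% interval −2.11 to −0.50) and did not pass (adjusted p = 0.082; DESeq2 0.0281). There 0 of 8 genes passed, beside 1.8% of 19337 genes, with 1 at an unadjusted p below 0.05, beside 14.8%, and 1 by DESeq2, beside 2.57%. The aN1aN2 libraries at 15 hours differ from RW at 15 hours in FPKM scale, and those at 5 days do not. Antibody, time and whatever step set that scale cannot be told apart in this change. For the aJ1aJ2 effect over the same times 0 of 8 passed, beside 0.636% of genes, with 0 at an unadjusted p below 0.05, beside 11.2%, and 0 by DESeq2. After aJ1aJ2, Thrsp had 146, 106, 121, 137 and 70.0 CPM at 5 days (log2 fold change −0.38, SE 0.25, adjusted p = 0.57) and 361, 463, 378, 345 and 388 CPM in the first 7-day set, where RW had 295, 195, 159, 132 and 417 CPM. There all 5 aJ1aJ2 libraries lay above the RW mean, and RW replicate 5 overlapped them (log2 fold change 0.72, SE 0.29, adjusted p = 0.381; library quality weights 0.0304). The order of the group means ran from 620.2 ± 202 CPM (aJ1aJ2, second set) through 387 ± 45.4 (aJ1aJ2, first set) and 239 ± 117 (RW, 7 days) to 62.1 ± 32.7 CPM (aN1aN2aN3). Below RW at 7 days each neighbouring pair differed by less than the larger of its SDs.

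The other values against RW did not pass. The 6 genes not given above ranged from −1.16 to −0.09 (log2) after aJ1aJ2 at 15 hours, from −0.16 to 0.49 after aN1aN2 at 15 hours, from −1.34 to −0.05 after aJ1aJ2 at 5 days and from −0.48 to −0.17 after aN1aN2 at 5 days, with adjusted p of at least 0.517. Several signs at 5 days changed without the muscle-rich RW replicate 3. Then Slc16a10, Crym, Thrb and Klf9 were at 0.72, 0.72, 0.17 and 0.13 after aJ1aJ2, and Slc16a10, Crym and Thrb at 0.96, 1.66 and 0.15 after aN1aN2, where each had been below 0 with it. That fit kept the most muscle-rich library of each antibody group, aJ1aJ2 replicate 3 (86365 CPM of muscle markers) and aN1aN2 replicate 1 (78683 CPM). The part of muscle in these signs was not tested. Dio2 after aJ1aJ2 ran from −0.66 to 0.087 over the fits without 1 library. In the first 7-day set Dio2 was estimated at 0.65 (adjusted p = 0.541) and Thra at 0.13 (adjusted p = 0.707). There 7 of the 8 estimates were above 0, with a median of 0.601 beside 0.00826 over all genes. In each of these 7 genes the highest aJ1aJ2 value was that of replicate 2, which held 81609 CPM of muscle markers. How far that library sets the median was not tested. In the second set 6 of 8 were below 0, with a median of −1.18 beside −0.0669.

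Other genes of the pathway are given from lists taken from general knowledge. In the second 7-day set the genes known to respond to thyroid hormone were lower after aN1aN2aN3 in 6 of 14 cases and higher in 0, beside 10.4% and 9.19% of all genes, with a median log2 fold change of −1.05. The 6 were genes of fatty acid synthesis, a gene of NADPH supply (Me1) and Gpd2, the mitochondrial glycerol phosphate dehydrogenase. Scd1, the desaturase that makes monounsaturated fatty acids, fell from 1585 ± 706 to 129 ± 61.1 CPM (log2 fold change −3.68, adjusted p = 0.000759). Me1, malic enzyme, fell from 94.6 ± 21.5 to 36.2 ± 8.32 CPM (log2 fold change −1.44, adjusted p = 0.00202). Acaca, the carboxylase that starts fatty acid synthesis, fell from 22.5 ± 7.91 to 12.0 ± 2.40 CPM (log2 fold change −0.97, adjusted p = 0.0163), and Fasn, the synthase, from 195 ± 126 to 58.2 ± 17.2 CPM (log2 fold change −1.82, adjusted p = 0.0213). Acly and Gpd2 also passed. Hr, a corepressor gene induced by the hormone in brain and skin, was at 12.8 ± 12.0 and 8.81 ± 4.49 CPM, did not pass, and was chosen after its values were seen. Thrsp and these 6 genes thus lay on one side of 0 and Klf9, also a gene known to respond to the hormone, on the other. Adipocytes express the same synthesis genes. Of 10 adipocyte markers 6 were lower and 0 higher, among them Adipoq (log2 fold change −2.09, adjusted p = 0.00166) and Fabp4 (log2 fold change −2.28, adjusted p = 0.00281), and of 6 brown adipocyte markers 4 were lower and 0 higher, with Otop1 at −3.99. The part of fat in the lower Thrsp and Dio2 cannot be told apart from the antibody, since the summed adipocyte markers did not overlap between the groups.

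The glucocorticoid-responsive genes were higher after aN1aN2aN3 in 7 of 8 cases and lower in 0, beside 9.19% and 10.4% of all genes, with a median of 1.18, beside Klf9 at 1.34. Fkbp5, a co-chaperone that dampens the glucocorticoid receptor, rose from 71.3 ± 25.0 to 197 ± 18.7 CPM (log2 fold change 1.40, adjusted p = 0.003). Sgk1, a kinase of ion transport, rose from 80.6 ± 34.2 to 257 ± 83.3 CPM (log2 fold change 1.61, adjusted p = 0.0058). Errfi1, an inhibitor of the EGF receptor, rose from 68.1 ± 3.65 to 325 ± 247 CPM (log2 fold change 2.19, adjusted p = 0.0059), and Tsc22d3, an anti-inflammatory leucine zipper protein, from 189 ± 38.7 to 385 ± 74.6 CPM (log2 fold change 0.97, adjusted p = 0.00763). Cdkn1a, Mt1 and Zbtb16 passed as well, and Mt2 did not. Among 12 clock genes 3 were higher, against the same background, and 0 lower: Npas2 (log2 fold change 2.22, adjusted p = 0.00443), Per1 (log2 fold change 1.94, adjusted p = 0.00502) and Nr1d1 (log2 fold change 1.14, adjusted p = 0.0182), a median of 0.291 for the list.

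**Figure D4:**
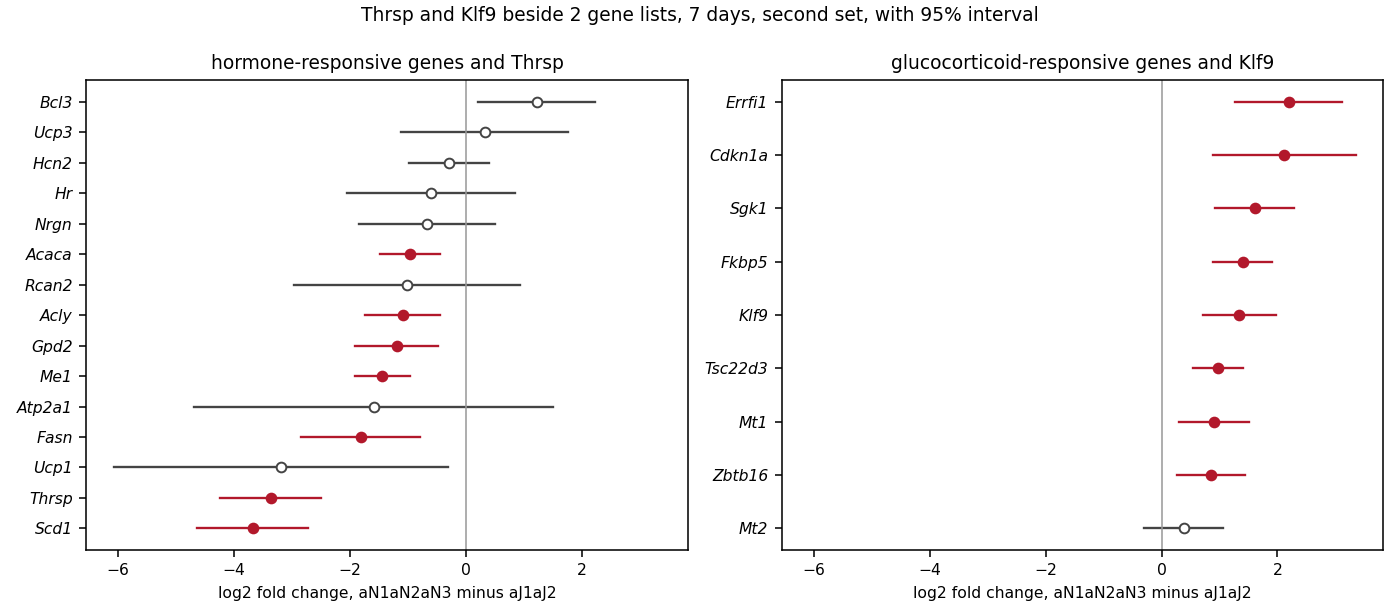
Log2 fold change between aN1aN2aN3 and aJ1aJ2 in the second 7-day set (horizontal axis; bars are 95% intervals) for 14 hormone-responsive genes with Thrsp (left) and 8 glucocorticoid-responsive genes with Klf9 (right); filled red points have an edgeR adjusted p below 0.05. The red points on the left are below 0, with Scd1 at −3.68 and Thrsp at −3.37, and those on the right are above 0.

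Of 7 tested genes for the third deiodinase and other hormone carriers, 2 rose after aN1aN2aN3 and 0 fell, beside 9.19% and 10.4% of all genes. Slc3a2, the heavy chain of the heterodimeric amino acid carriers, rose from 62.5 ± 8.63 to 120.3 ± 31.9 CPM (log2 fold change 0.89, adjusted p = 0.00927), and its light-chain partner Slc7a8 from 6.67 ± 3.04 to 19.6 ± 7.43 CPM (log2 fold change 1.49, adjusted p = 0.0174). Among 13 receptor partners and coregulators 0 passed, with 4 at an unadjusted p below 0.05, beside 35.6% of all genes, and 11 of 13 estimates above 0 (median 0.309). Of 9 genes for selenoprotein synthesis and Dio2 turnover, Usp20, a deubiquitinase that acts on Dio2, rose (log2 fold change 0.90, adjusted p = 0.00549) and Pstk, the kinase that prepares the tRNA for selenocysteine, fell (log2 fold change −1.14, adjusted p = 0.0056). With 9.19% of all genes called higher and 10.4% lower, the share of this list was near that of all genes. Neither of the 2 plasma hormone binders tested passed, with 1 at an unadjusted p below 0.05.

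In the first 7-day set no gene of these lists passed after aJ1aJ2. Klf9 was nonetheless accompanied by clock genes: 11 of 12 had an unadjusted p below 0.05, beside 11.6% of all genes, and 9 of 12 estimates were above 0 (median 0.697). Per2 was at 44.9 ± 11.3 CPM in RW and 106 ± 30.9 CPM after aJ1aJ2 (log2 fold change 1.25, adjusted p = 0.0997), and Tef at 166 ± 19.5 and 335 ± 57.0 CPM (log2 fold change 1.04, adjusted p = 0.07). Of the glucocorticoid-responsive genes 3 of 8 had an unadjusted p below 0.05, among them Fkbp5 (log2 fold change 1.56, adjusted p = 0.165). These 3 genes were chosen after their values were seen. The hour of collection is not in the labels, and its part in Klf9 was not tested.

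At 15 hours the list genes that passed after aN1aN2 were all lower. Besides Nr1d1 they were the clock-controlled Nr1d2 (log2 fold change −1.13, adjusted p = 0.00246) and Dbp (log2 fold change −1.30, adjusted p = 0.0375), the bile acid carrier Slc10a1, from 1.03 ± 0.534 to 0.186 ± 0.0877 CPM (adjusted p = 0.0182), and the plasma hormone binders Ttr, from 7.96 ± 4.69 to 0.760 ± 0.460 CPM (adjusted p = 0.00436), and Alb, from 91.3 ± 54.1 to 0.0603 ± 0.0694 CPM (adjusted p = 5.28e-05). The hepatocyte markers, which include Alb and Ttr, were lower in 7 of 7 cases there. Their sum averaged 136 CPM in RW at 15 hours and 1.69 CPM after aN1aN2. At 5 days it averaged 1.33 CPM in RW, 2.12 after aJ1aJ2 and 2.57 after aN1aN2. The aJ1aJ2 libraries at 15 hours, on the FPKM scale of RW, lay between, at 5.39 to 19.49 CPM. The aN1aN2 libraries at 15 hours share the FPKM scale of the 5-day libraries. In comparisons with them, antibody and whatever step set that scale cannot be told apart. Alb also passed after aJ1aJ2 at 15 hours, from 91.3 ± 54.1 to 6.24 ± 3.22 CPM (adjusted p = 0.00847), and between aN1aN2 and aJ1aJ2. At 5 days no gene of the lists passed after either pair. The part of liver RNA in these values was not tested.

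Within groups Dio1, Slc16a10, Crym, Thra and Thrb followed sums of markers more closely than Dio2, Klf9 and Thrsp did. After subtracting group means, log2 (CPM + 1) of Dio1 over the 50 libraries correlated with Slc16a10, Crym, Thra and Thrb at r = −0.805, −0.803, −0.806 and −0.82. Those 4 correlated with one another at r = 0.768 to 0.862. Dio1 followed the summed follicle markers (r = 0.926), whereas Slc16a10 and Crym followed the summed muscle markers (0.862 and 0.845), as did Thrb (0.778) and Thra (0.743). Muscle was not the only sum this close. With endothelium markers r was 0.846 for Dio1, −0.855 for Slc16a10, −0.838 for Crym, −0.815 for Thrb and −0.763 for Thra. Thra was at −0.796 with C cell and −0.759 with follicle markers. For both receptors, muscle was thus not the sum furthest from 0. Dio2 and Thrsp correlated with each other at r = 0.488 and with adipocyte markers at 0.486 and 0.418. Klf9 correlated with macrophage markers at −0.471, with muscle markers at 0.452 and with follicle markers at −0.349. All these values share libraries, depth and scaling, and are given as descriptions.

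**Figure D5:**
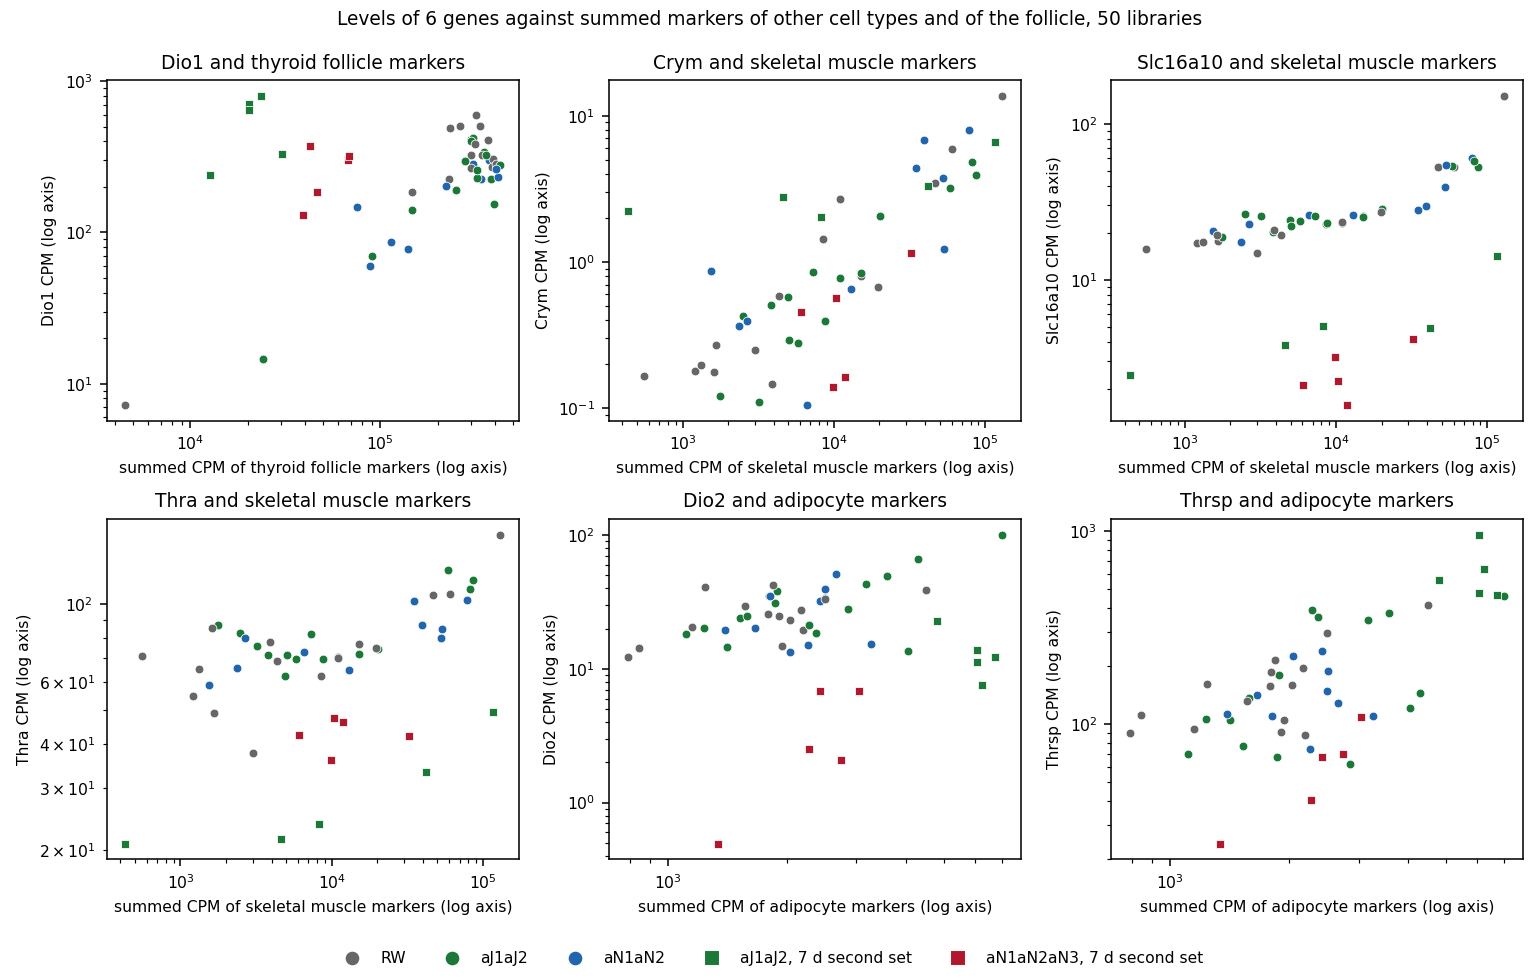
CPM of a gene (vertical axis, log scale) against the summed CPM of marker genes on unscaled library size (horizontal axis, log scale) in 50 libraries; round points are the first 8 groups, square points are the second 7-day set, coloured by antibody. The muscle-rich RW library at 5 days, at 129819 CPM of muscle markers, has 13.7 CPM of Crym and 151 CPM of Slc16a10, and the square points of Slc16a10 all lie at or below 14.2 CPM.

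The genes most like each of the 8 were found by the same correlation among 16195 genes. Iyd, which recovers iodide within the follicle cell, was closest to Dio1 (r = 0.988), followed by Folr1 (0.987) and Asgr1 (0.982). Slc16a10 was closest to Ulk2 and Camk2g (both 0.965) and Nt5dc3 (0.963). Crym was closest to Hs6st2 (0.972) and to Chrne (0.959) and Chrnd (0.957), which encode subunits of the muscle acetylcholine receptor. Thra was closest to Got2 (0.912) and Cnst (0.91) together with Cpeb3, and Thrb to Sec31b (0.933), Rnf150 and Usp47. Dio2 was closest to Nnmt (0.803), Elovl3 (0.737), which is known from brown fat, and Apmap (0.727). Klf9 was closest to Insr (0.828), Mlxip (0.8) and Prdm2, and Thrsp to Eno1 (0.813), Agpat2 (0.805), an enzyme of triglyceride synthesis, and Orm1 (0.786).

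The 2 groups labelled aJ1aJ2 at 7 days differed from each other in 5 of the 8 genes, beside 64% of 19570 genes (34.1% higher and 29.9% lower), so the share of these genes was near that of all genes. Dio1 was higher in the second set, 2.34-fold (log2 fold change 1.23, SE 0.38, adjusted p = 0.00812). Slc16a10 was 5.13-fold lower (log2 fold change −2.36, SE 0.39, adjusted p = 2.34e-05), Dio2 3.38-fold (log2 fold change −1.76, SE 0.53, adjusted p = 0.00781), Thra 2.73-fold (log2 fold change −1.45, SE 0.20, adjusted p = 2.09e-06) and Klf9 1.66-fold (log2 fold change −0.74, SE 0.25, adjusted p = 0.0135). Crym (1.33, adjusted p = 0.108), Thrb (−0.46, 0.0839) and Thrsp (0.70, 0.0778) did not pass. The groups did not overlap for 3 of 8 (Slc16a10, Thra and Thrsp), beside 43.3% of all genes. Dio1 and the follicle genes did not move as one between the sets: Iyd (log2 fold change 1.14, adjusted p = 0.00934) and Duoxa2 (log2 fold change 1.12, adjusted p = 0.0352) were higher with Dio1, whereas Tg (log2 fold change −4.29, adjusted p = 8.74e-09), Duox2 (log2 fold change −3.02, adjusted p = 6.73e-07) and 4 other follicle markers were lower. All 8 tested carriers besides Slc16a10 were lower in the second set, among them Slco2b1, an organic anion carrier (log2 fold change −0.92, adjusted p = 0.000291), and of 13 receptor partners and coregulators 9 were lower and 1 was higher, with the coactivator gene Ncoa2 at −2.01. Fold changes and tests of aN1aN2aN3 are for these reasons given against the aJ1aJ2 group of their own set alone.

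Over time in control thyroids 0 of 8 genes passed. From 15 hours to 5 days 0 of 8 did, beside 7.02% of 18309 genes, with 2 at an unadjusted p below 0.05, beside 22.2%, and 1 by DESeq2, beside 6.9%. Klf9 did not overlap between those times, at 93.2, 133, 98.3, 82.0 and 130.2 and 156, 153, 234, 137 and 171 CPM, 1 of 8 genes beside 10.1% (log2 fold change 0.67, SE 0.20, adjusted p = 0.0577; DESeq2 0.0205). Without RW replicate 3 at 5 days, Klf9 (0.53) and Thra (−0.64) both passed, Thra having been at −0.16 with it. From 15 hours to 7 days 0 of 8 passed, beside 1.26% of genes, with 2 at an unadjusted p below 0.05, beside 10.7%, and 1 by DESeq2, beside 2.21%. Thrsp was estimated 2.25-fold higher (log2 fold change 1.17, SE 0.33, adjusted p = 0.114; DESeq2 0.0163). From 5 to 7 days 0 of 8 passed, beside 14.3%, with 3 at an unadjusted p below 0.05, beside 30.3%, and 1 by DESeq2, beside 11.5%. That 1 was Crym (log2 fold change −3.06, SE 1.26, adjusted p = 0.121; DESeq2 0.0252). Without RW replicate 3 at 5 days the estimate for Crym was −1.02 (adjusted p = 0.532). The deposited FPKM of the 5-day libraries is on another scale than that of RW at 15 hours and 7 days, so time and whatever step set that scale cannot be told apart for the 5-day values.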

How the data were processed

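Thyroid RNA in 50 libraries was sequenced by the submitters on an Illumina instrument in single reads of 50 bases, per the labels' protocols. The deposited table holds whole-number read counts per Ensembl gene for every library, and the authors also deposited FPKM, used here only to examine its length term and scale. The submitters' processing notes name GSNAP and limma. For the counter, genome build, annotation and use of strand, the sources used here give nothing. Of 52636 IDs, 52403 matched a symbol. Total counts were 15271242 to 52835846 per library, and no replicate pair agreed within sampling noise (smallest chi-square per degree of freedom 15.6 over 100 pairs).

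Groups came from the sample titles. Counts were filtered (filterByExpr, minimum count 10, minimum total 15), scaled by TMM and tested with edgeR 4.0.16 (R 4.3.3) in 1 fit per time or 7-day set pair, with no block. The test was tried on simulated counts first. Alternatives were RLE size factors, no low-count filter, DESeq2 1.42.0, the replicate number as a block, library quality weights (limma 3.58.1), marker sums as covariates, and leaving out each library. Named genes were the 8 members, up to 4 genes per list and comparison with the smallest adjusted p past the threshold, and the 3 genes most correlated with each member. Exceptions are stated, and a few genes that this rule would name are not reported here. Members and lists were chosen with earlier results of these data known. Replicate numbers were not used as pairs in the main test, and whether they pair the samples was not settled.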

Additional observations from a re-analysis of the deposited data

Results flagged for a closer look

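Of 80 groups of 5 libraries (8 genes in 10 groups), 19 had a highest or lowest library that stood apart from the other 4 by Dixon's criterion, where chance gives about 1 in 20. Of these, 17 lay in 6 libraries with high summed skeletal muscle markers. RW replicate 3 at 5 days (129819 CPM of muscle markers) was low for Dio1 (7.21 CPM) and high for Slc16a10 (151), Crym (13.7), Thra (157) and Thrb (60.4 CPM). In aJ1aJ2 replicate 2 of the first 7-day set (81609 CPM) Slc16a10 was at 57.7, Crym at 4.80, Thrb at 40.1 and Klf9 at 319 CPM. In aJ1aJ2 replicate 3 at 15 hours (58544 CPM) Slc16a10 was at 54.0, Crym at 3.18 and Thra at 125 CPM. In aJ1aJ2 replicate 4 of the second 7-day set (115641 CPM) Slc16a10 was at 14.2, Crym at 6.62 and Thrb at 33.7 CPM. At 5 days Slc16a10 was at 52.5 CPM in aJ1aJ2 replicate 3 (86365 CPM of muscle markers), and Thrb at 32.3 CPM in aN1aN2 replicate 1 (78683 CPM). The other two values were Dio2 at 66.5 CPM in aJ1aJ2 replicate 1 at 5 days and Thrsp at 157 CPM in RW replicate 1 at 15 hours. The part of muscle in these values was not tested.

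The aJ1aJ2 effect on Klf9 differed between 15 hours and 7 days by 1.23 (log2; edgeR interaction, adjusted p = 0.0404), with all 5 aJ1aJ2 libraries below the RW mean at 15 hours and all 5 above it at 7 days. Neither time passed edgeR's test on its own (adjusted p = 0.732 and 0.131). Most fits that left out 1 library lost the interaction call.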

How the results depend on the processing

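Over the log2 fold changes given above, fits that left out 1 library kept direction and side of the threshold in 531 cases, lost the call in 21, gained one in 13 and reversed in 5. Other alternatives kept both in 223 cases, lost the call in 10, gained one in 17 and reversed in 10. Where a value changed, the cause was not tested.

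Of the 8 genes, library quality weights called 2 after aJ1aJ2 at 5 days (Thra and Thrsp), 1 after aN1aN2 at 5 days (Thra) and 2 after aJ1aJ2 in the first 7-day set (Klf9 and Thrsp). DESeq2 called 1 after aJ1aJ2 in the first 7-day set, 1 in each comparison of RW between times, 1 for the change of the aN1aN2 effect from 15 hours to 5 days and 1 for the change of the aJ1aJ2 effect from 5 to 7 days. In the second 7-day set the adipocyte covariate and the follicle covariate, the latter added after seeing the data, each left 0 calls. Without 1 library that set gave 3 to 5 calls. The aJ1aJ2 sets compared gave 5 to 6, RW at 5 days against 15 hours 0 to 2 (2 without RW replicate 3 at 5 days), and RW at 7 days against 15 hours 0 to 1 (Thrsp, without that library). The change of the aN1aN2 effect gave 0 to 1 (Thrsp, without that library or aJ1aJ2 replicate 4 at 15 hours), and that of the aJ1aJ2 effect from 15 hours to 7 days 0 to 1.

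Reversals concerned values that mostly did not pass. With the adipocyte covariate Thra was at −0.027 after aN1aN2 at 5 days, Dio2 at −0.13 and Thra at −0.022 after aJ1aJ2 in the first 7-day set, and Dio1 at 0.34, Dio2 at 0.079 and Thra at −0.13 in the second. With the follicle covariate Slc16a10 was at 0.066 and Thrb at 0.51 there. Quality weights put Crym at −0.00676 and Thra at −0.0125 in the first 7-day set. Among the genes with single estimates printed, leaving out 1 library moved Thra from −0.062 to 0.62 after aN1aN2 at 5 days, from −0.022 to 0.19 after aJ1aJ2 in the first 7-day set, and from −0.64 to 0.0049 between RW at 15 hours and 5 days.

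With the replicate number as a block, 0 of 8 genes passed for the change of the aJ1aJ2 effect from 15 hours to 7 days (Klf9, adjusted p = 0.0571), Dio2 no longer passed in the second 7-day set (0.0599), and that set's calls over all genes went from 3614 to 2100. Same-numbered libraries correlated above 0.1 in 0 to 4 of 5 pairs per comparison. The highest values were 0.81 for aN1aN2 against RW at 15 hours and 0.735 for aJ1aJ2 against RW at 5 days. These correlations cannot decide whether the numbers pair the libraries, since the same deviations also follow how much muscle or follicle a library holds.

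Calls over all genes moved by more than 1.5 times in several comparisons. They ran from 35 to 312 after aJ1aJ2 and from 91 to 935 after aN1aN2 at 15 hours, from 0 to 3476 and from 0 to 1523 at 5 days, from 0 to 595 in the first 7-day set and from 0 to 8248 in the second. Depth limits Crym most, which had 2 to 279 counts per library. The order of group means depended in part on scaling, as given above for Thra and Thrb. On unscaled library sizes the highest Crym mean was 4.14 CPM, after aJ1aJ2 in the second set, and RW at 5 days was at 2.20 CPM.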
